A study of Caenorhabditis elegans with 4 samples.

Results

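The left arm of the X chromosome of *Caenorhabditis elegans* held 522 of the 14075 binding peaks of the chromodomain protein CEC-3 in the list the authors deposited for the whole series. The arm is the left one of 3 equal parts of X, and a peak belongs to it when its midpoint lies at or below base 5906248 of the build WormBase WS220. Position alone chose the 522 peaks, and no measured value entered the choice. In the lists of the separate ChIP libraries the same interval held 90 of 3666 peaks in replicate 1 and 102 of 3867 peaks in replicate 2. The whole-series list has 756 peaks on X, so 69.05% of them (95% Wilson interval 65.7 to 72.2%) lay on this arm.

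Chromatin immunoprecipitation with sequencing was done on adult hermaphrodites of the strain *fem-2(b245)*, genotype *fem-2(b245)*III, kept at 20 °C. All 4 samples carry that allele. They form a ChIP group, made with a purified polyclonal rabbit antibody to T09A5.8 (the gene *cec-3* in the gene table of assembly WBcel235), and an input DNA group, with 2 replicates in each. The stage label reads young adult with a germline, and the growth protocol describes gravid adults harvested in bulk, so the peaks are averages over the tissues of many animals and cannot be placed in germline or soma. *fem-2* encodes a phosphatase of the sex determination pathway that promotes male fates, spermatogenesis included, and no wild-type strain was part of the comparison.

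CEC-3 has a chromodomain, a fold that recognises methylated histone tails, and it binds histone H3 methylated at lysine 9. In worms this mark covers repeats and silent genes and is concentrated on the arms of the autosomes, where chromatin touches the nuclear envelope. On X these features are known mainly from the left end, which also carries the pairing centre that the chromosome uses in meiosis. The comparisons below ask where on the arm the peaks lie, how wide and how strong they are, and whether both ChIP libraries found them.

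The 3 lists differ in how they cut the signal into peaks. Every peak carries a score from the authors' caller whose scale is not stated. Scores of the whole-series list start at 1.3 and those of the replicate lists at 50.1 and 50.07, so scores were compared within a list only. The lists hold no read counts, so the depth behind a peak is unknown, and the input libraries enter no comparison. Nothing in the labels says that the replicates came from separate cultures, so tests and spreads describe these libraries and may be technical.

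Binding on the arm was concentrated in a pair of dense stretches near the left end of X. The first ran from the chromosome end to 0.4 Mb and held 194 of the 522 peaks, and the other ran from 1.5 to 2.1 Mb and held 227. The 1.1 Mb between them held 40 peaks, and the remaining arm beyond 2.1 Mb, which is 3.81 Mb long, held 61. Per Mb that is 485.0 peaks in the first stretch, 36.4 between, 378.3 in the other dense stretch and 16.03 on the inner arm. The limits of the stretches were drawn from the same peaks, so the densities of the stretches were not tested against each other. Tests given below without the stretch from 1.5 to 2.1 Mb rest on those limits too, and describe these data only.

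The replicates placed their peaks in the same stretches. Replicate 1 had 44 peaks in the first stretch, 11 between, 22 in the other dense stretch and 13 on the inner arm. Replicate 2 had 39, 12, 35 and 16 in the same order. The count differed most in the stretch from 1.5 to 2.1 Mb, which replicate 1 covered to 21.1% and replicate 2 to 30.3%. The whole-series list covered 65.98% of that stretch. In the first stretch the lists stood closer, at 32.0% for replicate 1, 34.2% for replicate 2 and 34.3% for the whole series. Between the stretches coverage was 2.05%, 2.12% and 1.64% in that order, and on the inner arm it was 0.697%, 0.822% and 0.767%.

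**Figure D1:**
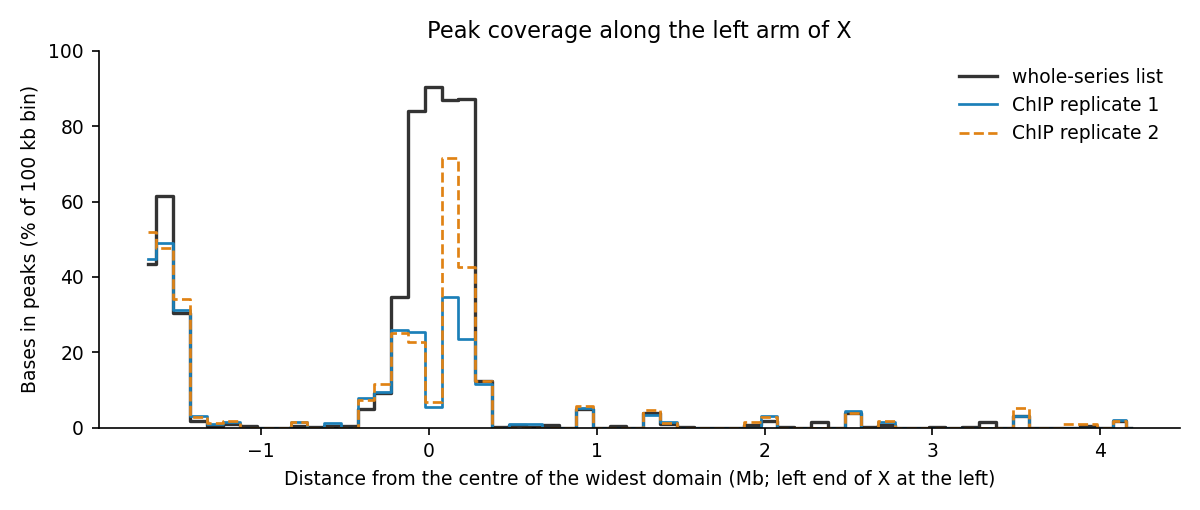
Share of bases inside peaks in each 100 kb bin of the left arm of X (vertical axis, percent), for the whole-series list and the 2 ChIP replicates, against distance from the centre of the widest domain (horizontal axis, Mb). All 3 lists rise at the left end and again around 0, and the whole-series list stands far above the replicates around 0, where it reaches 90.4% of a bin.

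In the plot of coverage along the arm, 5 of 60 bins of 100 kb were more than 50% covered by the whole-series list, and 49 were less than 5% covered. The bin from 1.7 to 1.8 Mb was the most covered, with 90.4% of bases in whole-series peaks against 5.53% in replicate 1 and 6.97% in replicate 2. The bin from 1.8 to 1.9 Mb was covered to 86.8%, 34.7% and 71.6% in the same order, so the replicates themselves stood apart there. In the bin from 0.1 to 0.2 Mb the values were 61.5%, 48.9% and 47.7%. Replicate 1 had no peak base in 34 bins, replicate 2 in 34 and the whole-series list in 19.

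Peaks began at the first base of the chromosome. The whole-series list has a peak from X 1 to 348 with a score of 10.11, replicate 1 one from 1 to 819 (208.67) and replicate 2 one from 1 to 829 (399.9). The longest stretch of the arm without a whole-series peak ran for 369 kb, from 3262496 to 3631292. At the inner limit the last peak of the arm lay at 5815944 to 5817323 (13.74), and the next peak on X lay at 5984728 to 5985154 (11.17), so the limit itself falls in a gap between peaks.

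Most peaks of the arm were narrow and closely packed. Their median width was 431 bp, the middle 50% of them lay between 227.5 and 1063 bp, and the extremes were 146 and 20790 bp. The median gap to the next peak was 233 bp, and 341 of the 521 gaps were 500 bp or shorter. When peaks no more than 500 bp apart were merged, 181 domains resulted, of which 97 were single peaks and 17 were at least 10 kb wide. These 17 domains held 68.0% of all peak bases of the arm, 13 of them in the dense stretch from 1.5 to 2.1 Mb and 4 in the first one.

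Scores rose with width. Over the 522 peaks Spearman's rho was 0.82, against 0.78 over all 14075 peaks of the list, a description across peaks that share libraries. Scores on the arm ran from 1.39 to 112.49 with a median of 8.235. In the dense stretch from 1.5 to 2.1 Mb the median score was 12.53 and the median width 646 bp. In the first stretch the medians were 6.695 and 374 bp, and on the inner arm 4.98 and 293 bp. Of the 100 highest-scoring peaks of the list 1 lay on the arm, and of the 1000 highest 37 did. The arm held 3.71% of all peaks of the list, so 37 of 1000 is near that share.

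The strongest peaks found by both libraries lay at isolated points as well as in the dense stretches. The highest-scoring peak of the arm, the 19th of the whole list, lay in the first stretch at X 9067 to 13098 with a score of 112.49. It fell within a replicate 1 peak from 7329 to 14652 and a replicate 2 peak from 7321 to 14183, both with a score of 3100, the value at which replicate scores of the arm stop and pile up. The next, at 2057780 to 2064032 with 72.84, stood at the inner edge of the other dense stretch and again met peaks of 3100 in both replicates, from 2056336 to 2064368 and from 2056506 to 2064396. No list has another peak within 20 kb on either side of it.

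Outside the dense stretches, the peak at 3075360 to 3077996 with a score of 48.18 was the strongest of the inner arm. It met a replicate 1 peak scored 3096.77 and a replicate 2 peak scored 3100, in a part of the arm where the lists have few other peaks. The peak at 1376733 to 1377490 (40.33), between the stretches, met replicate peaks scored 296.22 and 1164.15. Farther in, the highest peak of the fifth Mb lay at 4221195 to 4222084 (16.88), with replicate scores of 601.93 and 628.57. In the last part of the arm it lay at 5230257 to 5230868 (26.79), and only replicate 2 had a peak there, scored 703.36.

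The other shared peaks among the 10 highest lay in the dense stretches. In the first these were 46754 to 49380 (48.05), 180261 to 182291 (43.79), 289762 to 295300 (44.64) and 330204 to 330918 (52.85). In the other they were 1833664 to 1835272 (58.3) and 1854198 to 1857005 (41.99). Replicate 1 covered all 10 peaks in full. Replicate 2 covered 9 in full and 74.3% of the one at 46754. The replicate 1 scores of the 10 lay between 296.22 and 3100, those of replicate 2 between 865.98 and 3100, and a high whole-series score did not go with a high replicate score in every case. Over the 210 peaks found in both, Spearman's rho of the whole-series score was 0.35 with the replicate 1 score and 0.36 with the replicate 2 score, where several peaks can share 1 replicate peak.

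Fewer peaks of the arm were found by both libraries than elsewhere in the list. A peak of both replicates overlapped 210 of the 522 by at least 1 bp, or 40.2% (95% Wilson interval 36.1 to 44.5%), where 53.8% of the whole list did. Replicate 1 alone met 31, replicate 2 alone met 80, and 201 or 38.5% (34.4 to 42.7%) met a peak of neither, against 27.0% of the whole list. Against the 13553 other peaks, the share in both differed by -14.1 percentage points (two-sided Fisher's exact test, adjusted p = 9.9e-10 over 13 such tests), and the share in neither stood at 38.5% against 26.5% (the same exact test, adjusted p = 1.6e-08). These tests count neighbouring peaks as independent, which they are not. Without the stretch from 1.5 to 2.1 Mb the share in both was 48.5%, a difference of -5.89 points (exact test, adjusted p = 0.074), and the share in neither was 34.2%, higher by 7.70 points (exact test, adjusted p = 0.0067).

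The rest of X had a low share in both replicates too. It was 36.8% of 234 peaks, and the left arm stood 3.48 points higher (two-sided Fisher's exact test, adjusted p = 0.41). The peaks in neither made up 34.2% of the rest of X, 4.32 points fewer than on the left arm (exact test, adjusted p = 0.34). On the left arm the 201 peaks in neither reached 20790 bp and a score of 61.52, and they held 45.9% of the peak bases of the arm. On the right arm of X such peaks held 17.8% of peak bases, and the difference in bases was tested only across arms.

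Among all 12 chromosome arms, the X left arm had the largest share of its peak bases in peaks that neither library found. The 45.9% compares with 7.83% on the left arm of IV to 26.8% on the right arm of V for the other 11. Placing the label on each of the 12 arms in turn gives an exact permutation p of 0.083, the smallest that 12 arms allow, and an adjusted p of 0.27 over 13 measures, so no arm can be called apart by this test. Much of the value came from 1 stretch, and without 1.5 to 2.1 Mb it was 23.3%. That was still above every other arm but the right arm of V, and above the median of the other 11, 13.4%.

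In the whole-series list a high score usually went with support in both libraries, and among high-scoring peaks of the X left arm that support was less frequent than among the other peaks of the list. With the list divided by score into 4 classes of about equal number, 87.1% of the highest class was in both replicates outside the arm, 2916 of 3349 peaks. On the arm it was 48.0%, or 82 of 171 (95% Wilson interval 40.6 to 55.4%), a difference of -39.1 points (two-sided Fisher's exact test, adjusted p = 5.9e-31, counting error only). The lower 3 classes of the arm had 32.4%, 22.9% and 50.4% from the lowest up, against 28.8%, 37.2% and 64.7% elsewhere. Without the stretch from 1.5 to 2.1 Mb, the highest class had 78.7% of 61 peaks in both, a difference of -8.38 points (exact test, adjusted p = 0.10). The rest of X also had lower shares than all other peaks, with 19.2%, 27.0%, 41.8% and 74.4% in both from the lowest class up, the last being 32 of 43 peaks (59.8 to 85.1%, Wilson). The left arm and the rest of X were not tested against each other by class.

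**Figure D2:**
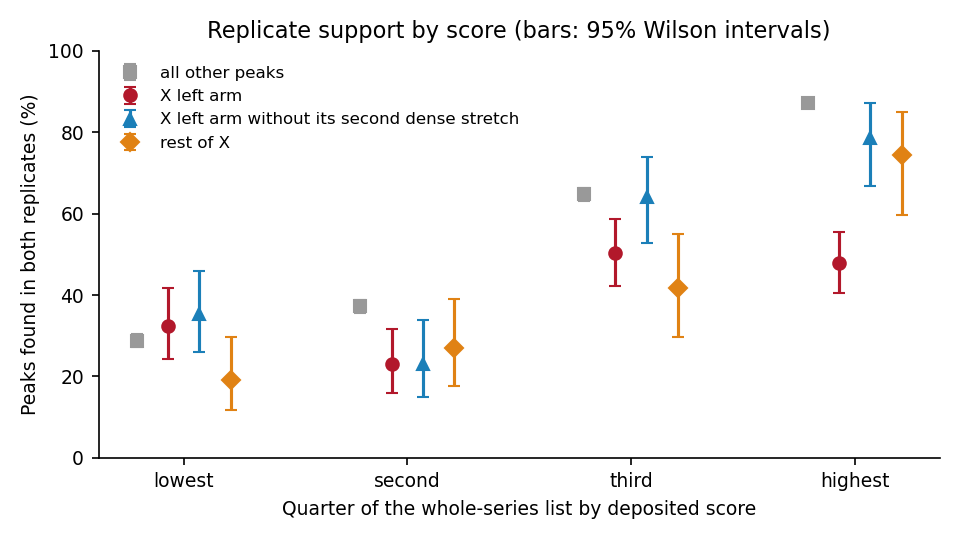
Percent of peaks with support in both replicates (vertical axis) in 4 score classes of the whole-series list (horizontal axis), for all other peaks, the X left arm, the arm without its second dense stretch, and the rest of X, which is also among the other peaks. Points are shares and bars are 95% Wilson intervals, and the arm's highest class stands at 48.0% where the other peaks stand at 87.1% and the rest of X at 74.4%.

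The plot of support by score shows the arm below the other peaks in every class but the lowest. With the dense stretch left out the arm stood at 64.0% and 78.7% in the upper 2 classes, nearer the other peaks, and at 23.0% in the class below them. Of 21 peaks of the arm at least 5 kb wide, 14 met a peak of neither replicate, 4 of both and 3 of replicate 2 alone. Outside the arm 58 of 343 such peaks, or 16.9%, met neither, where 66.7% on the arm did (two-sided Fisher's exact test, adjusted p = 3.6e-06, counting error only). The test counts neighbouring peaks as independent, which they are not, and the width class was added after the values were seen. Of these 58, 37 lay on the right arm of V, which had 87 such peaks, and 13 on the right arm of I, which had 59. Of the 21 on the X left arm, 19 lay in the stretch from 1.5 to 2.1 Mb, and the 5 peaks of 10 kb or more were all in neither. Peaks of 10 kb or more outside the arm were not counted, so this is not shown to be particular to the arm.

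**Figure D3:**
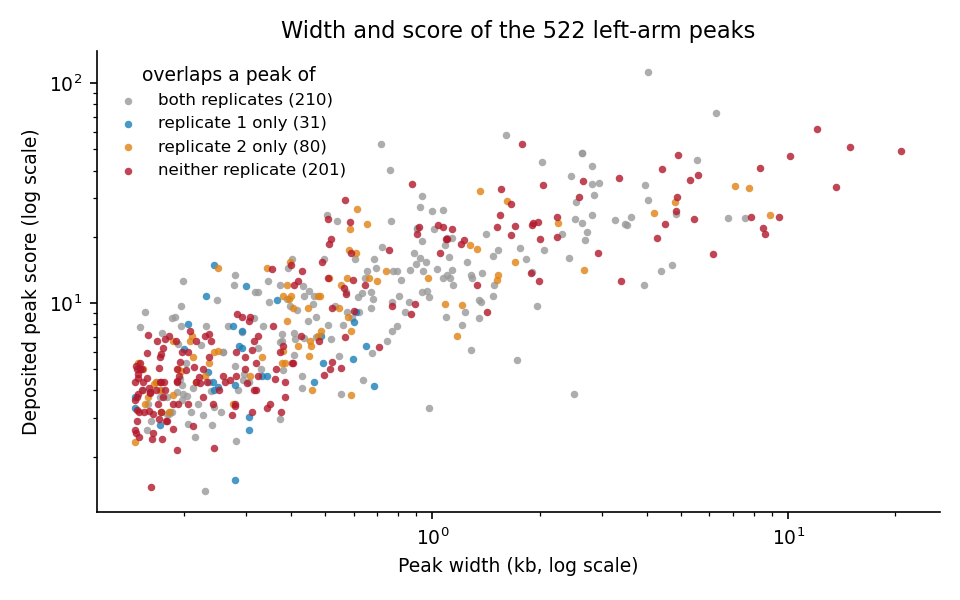
Deposited score (vertical axis, log scale) against width in kb (horizontal axis, log scale) for the 522 peaks of the X left arm, coloured by whether they overlap a peak of both replicates, 1 or neither. The 5 widest peaks, from 10.1 to 20.8 kb, are all found in neither replicate, although the 2 highest scores belong to peaks found in both. Peaks of such width outside the arm were not counted.

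As the plot of width and score shows, the unfound peaks occur at both ends of the range. The widest peak of the arm lay at 1781965 to 1802754 with a score of 49.07, and neither library had a peak base in it. The others among the 5 widest lay at 1762032 to 1776906 (51.4), 1682357 to 1695926 (33.57), 1653992 to 1666005 (61.52) and 121825 to 131917 (46.43), again with no replicate peak base. The 5 highest-scoring peaks in neither include 3 of these, together with 1643420 to 1645206 (53) and 1721153 to 1726061 (47.08). The narrow ones were many, since 80 of the 154 peaks under 250 bp, or 51.9%, were in neither, where the share was 50.2% for such peaks outside the arm.

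Within the stretch from 1.5 to 2.1 Mb, whole-series peaks covered 84.1 to 90.4% of each 100 kb bin between 1.6 and 2.0 Mb, and 34.8% and 12.5% of the bins on either side. The widest domain ran from 1696697 to 1749655 and joined 22 peaks over 52.96 kb, of which 94.7% lay inside peaks. Its edges rest on the 500 bp rule, with gaps of 770 bp to its left and 752 bp to its right. Of the other 4 among the 5 widest, one lay to its left, from 1643420 to 1695926, and joined 18 peaks over 52.5 kb. The nearest to its right, from 1760235 to 1809742, joined 7 peaks over 49.5 kb. It was followed by 1810475 to 1842186 (31.7 kb, 27 peaks), and farther in by 1962252 to 2003995 (41.7 kb, 14 peaks).

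The libraries covered these domains unequally. Replicate 1 covered none of the domain at 1643420, 16.7% of that at 1696697, none of that at 1760235, 60.95% of that at 1810475 and none of that at 1962252. Replicate 2 covered 0%, 16.7%, 2.84%, 95.3% and 49.6% in the same order. The domains at 1643420 and 1760235 were thus bare or nearly so in both libraries, that at 1696697 was covered alike in both, and the other 2 were covered more by replicate 2.

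**Figure D4:**
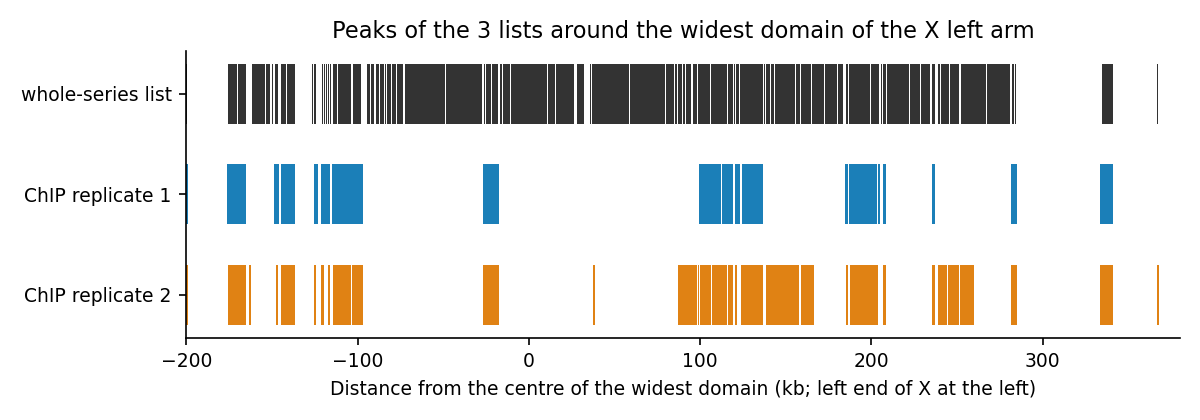
Peaks of the whole-series list and of both ChIP replicates as boxes, drawn to scale against distance from the centre of the widest domain (horizontal axis, kb). The whole-series boxes run with few breaks through most of the window, while the replicate boxes come in separate groups with empty stretches between them.

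In the map of the peaks around the widest domain, the replicate lists stop and start at nearly the same places in some parts and differ in others. Replicate 1 ended a peak at 1626067 and began the next at 1696406, and replicate 2 did so at 1626127 and 1696329. Whole-series peaks covered 87.4% and 87.6% of the 2 gaps. The libraries then shared a peak scored 3100 in each, at 1696406 to 1705530 in replicate 1 and at 1696329 to 1705564 in replicate 2. After it, replicate 1 had no peak until 1822686, over 117 kb of which whole-series peaks covered 88.9%. Replicate 2 had a small peak from 1760421 to 1761827 and resumed at 1810276. Farther in, replicate 2 covered 56.4% of the replicate 1 gap from 1859973 to 1907812 and 47.6% of that from 1960468 to 2004897.

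Gaps of the replicate lists were of 2 kinds. Between its peaks on the arm, replicate 1 had 28 gaps of 20 kb or more. Whole-series peaks covered more than 50% of 6 of them and less than 5% of the other 22. The gap that crosses the inner limit of the arm was left out in both replicates. Replicate 2 had 30, of which 6 were covered to more than 50% and 24 to less than 5%. No gap fell between. Gaps beyond the arm were not sorted in this way, so the 2 kinds are not shown to be particular to it. Of the gaps that whole-series peaks filled, 1 in each replicate lay in the first stretch, at 114825 to 142500 in replicate 1 and at 114809 to 142546 in replicate 2, covered to 77.2% and 77.0%. The others lay in the stretch from 1.5 to 2.1 Mb.

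The 17 domains of 10 kb or more fell into like kinds. In 7 both libraries covered more than 80% of the bases, in 5 both covered less than 5%, and the remaining 5 were split between the libraries or covered in part. Domains beyond the arm were not sorted in this way. The domain from 1547461 to 1557804 was covered to 100% in both libraries, and the next one, from 1561069 to 1573996, to 0% in both. The domain from 1861667 to 1878610 was covered to 100% in replicate 2 and to 0% in replicate 1. No value at hand separates a lack of enrichment in a library from a loss in peak calling, and which of them applies was not tested.

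Most replicate peaks of the arm had a partner in the other library, and one-to-one partners lined up closely. Replicate 2 had a partner for 81 of the 90 peaks of replicate 1, which is 90.0% (82.1 to 94.6%, Wilson), where 89.0% of the whole list did (two-sided Fisher's exact test against its other peaks, adjusted p = 1.00, 0.990 points higher on the arm). Replicate 1 had one for 74 of the 102 peaks of replicate 2, which is 72.5% (63.2 to 80.3%), where 85.3% of the whole list did. The difference from the other peaks of replicate 2 was -13.1 points (exact test, adjusted p = 0.0011, counting error only). A low share is not particular to the arm, since it was 65.0% in the centre of X and 61.8% on its right arm. The left arm was not tested against these parts of X. The arm held 62 one-to-one pairs, whose starts lay a median of 87.5 bp apart and whose ends lay 93 bp apart. Shared peaks that met several peaks of the other library, or whose partner did, are left out of these medians.

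The peaks that replicate 1 lacked included strong ones in the dense stretch. Of the 28 unshared peaks of replicate 2, 13 lay from 1.5 to 2.1 Mb, 9 in the first stretch and 6 elsewhere. Replicate 1 had 9 unshared peaks, 0 of them in the stretch from 1.5 to 2.1 Mb, 6 in the first and 3 elsewhere. None of these scored above 434.88, while 6 of replicate 2 scored above 1000. The 6 lay at 1810276 to 1812993 (1246.03), 1813363 to 1821564 (1123.51), 1881827 to 1888311 (3100), 1963841 to 1967524 (1278.62), 1967647 to 1974496 (2869.99) and 1974596 to 1983328 (3100). They were chosen for mention after their values were seen.

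Scores within the 62 pairs had a Spearman's rho of 0.76 across peaks. Replicate 2 had the higher score in 46 pairs, replicate 1 in 11, and 5 were equal. The median score of the arm was 295.0 in replicate 1 and 394.8 in replicate 2, and over the whole lists it was 381.3 and 448.7. Whether scores can be compared between these lists is not stated, so the difference is given as values only.

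The highest-scoring replicate peaks of the arm, at 3100, lay in the dense stretches, with the exception of the replicate 2 peak at 3074939 to 3078330 on the inner arm. In order of position the first 5 of the 9 in replicate 1 were 7329 to 14652, 44462 to 52958, 107475 to 114824, 1608448 to 1619351 and 1619583 to 1626067. In replicate 2, which had 13, they were 7321 to 14183, 163595 to 171068, 192438 to 198121, 284834 to 295797 and 1608942 to 1619386. The widest peak was 16507 bp in replicate 1 and 17455 bp in replicate 2, and the median widths were 2042.5 and 1847 bp. Every peak of replicate 1 and 101 of the 102 of replicate 2 met a whole-series peak. The exception lay at 5541749 to 5542759, with a score of 67.9. These counts were not set beside those of the whole replicate lists. A replicate peak met a median of 2 whole-series peaks in either library, and at most 9 in replicate 1 and 12 in replicate 2.

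Set against the rest of X, the left arm was dense. Replicate 1 had 15.2 peaks per Mb on the arm and 4.57 on the rest of X, and replicate 2 had 17.3 and 6.35. The ratio was 3.03 ± 0.434 (SD, n = 2), and the arm held 62.5% of the X peaks of replicate 1 (95% Wilson interval 54.4 to 70.0%) and 57.6% of those of replicate 2 (50.3 to 64.7%) on 33.3% of its bases. Against that share of bases, 2-sided exact binomial tests gave p = 1.1e-12 for replicate 1 and 4.1e-11 for replicate 2. Both tests cover counting error only and take peaks as independent draws, though the peaks of the arm lie in clusters. In the whole-series list the arm was denser by 4.46-fold. Without the stretch from 1.5 to 2.1 Mb, the remainder of the arm was still denser than the rest of X, with a mean log2 ratio of 1.24 against 1.59 with it. The first 0.4 Mb held most of those remaining peaks, 44 in replicate 1 and 39 in replicate 2. The inner arm had 3.42 and 4.20 peaks per Mb in replicates 1 and 2, below the rest of X in both, and 16.03 against 19.8 in the whole-series list.

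Set against the arms of all chromosomes, the X left arm was sparse. Its mean of 16.3 ± 1.44 peaks per Mb (SD, n = 2) was the 11th of 12, above the right arm of X at 7.62 and below the left arm of V at 24.5. The other 11 arms averaged 55.6 (exact permutation of the label over 12 arms, two-sided, p = 0.25, adjusted p = 0.36). By bases, 5.73 ± 0.831% of the arm lay in replicate peaks (SD, n = 2), against a mean of 18.6% in the other arms (exact permutation p = 0.33, adjusted p = 0.43). These values are means of the replicate lists. In the whole-series list the arm was 9th of 12, with 88.4 peaks per Mb and 9.82% of its bases in peaks. The other arms averaged 207.1 and 18.7% (exact permutation p = 0.58, adjusted p = 0.58 for each).

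The whole-series peaks of the arm had the highest median score of the 12 arms and the lowest share found in both libraries. The median was 8.235 against 5.71 to 7.47 in the others, and the share 40.2% against 41.8 to 60.5% (exact permutation p = 0.083 for each, the smallest possible, adjusted p = 0.27). Without the stretch from 1.5 to 2.1 Mb the median score was 6.05 and the median width 342 bp, both inside the range of the other arms for score (5.71 to 7.47) and width (337.5 to 440 bp). The whole-series list covered 1.71 times as many bases of the arm as the mean of the replicates, 580.1 kb against 303.7 and 373.1 kb. The ratio was 0.860 to 1.28 in the other 11 arms (exact permutation p = 0.083, adjusted p = 0.27), and the arm without that stretch had a ratio of 1.00.

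**Figure D5:**
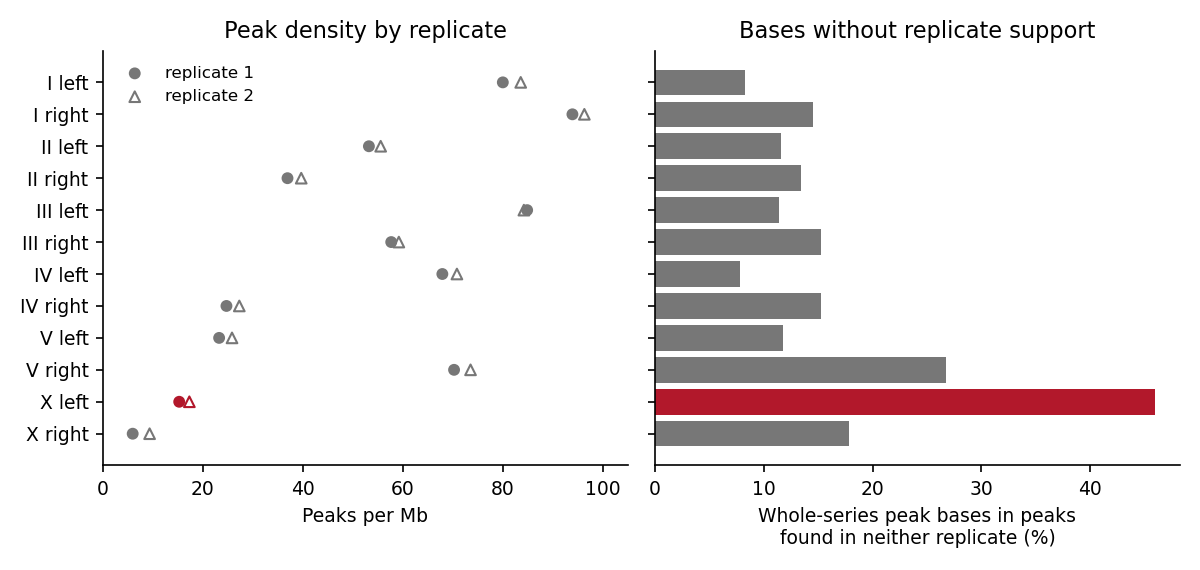
Left, peaks per Mb in each of the 12 chromosome arms (rows), with filled circles for replicate 1 and open triangles for replicate 2. Right, percent of whole-series peak bases that lie in peaks found in neither replicate, as bars from 0. The X left arm, in red, has 15.2 and 17.3 peaks per Mb and 45.9% of its peak bases without a replicate peak.

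In the plot of the 12 arms, the low density of the X left arm is seen in both libraries, and its share of unfound bases stands beyond that of the right arm of V, the next highest at 26.8%. Of the 266.5 kb of unfound peaks on the arm, 223.6 kb lay in the stretch from 1.5 to 2.1 Mb and 31.5 kb in the first stretch. Which genes or repeats lie under these peaks was not analysed here, since the gene coordinates at hand belong to another build.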

How the data were processed

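T09A5.8 ChIP and input DNA samples, 2 replicates each, were given groups from their titles. Ground frozen worms were crosslinked with 1% formaldehyde (10 min) and sheared by sonication, and the antibody was raised to 100 residues, per the labels. Reads were aligned with BWA to ce10, per the submitters' processing notes. The authors deposited 3 peak lists on WormBase WS220, per the file headers, made with MACS (replicates) and MACS v2 (whole series), per their source columns. The deposited values are peak positions and a score per peak from the authors' caller. For the MACS version of the replicate lists, controls, thresholds and pooling, the sources used here state nothing. Depth is unknown.

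Peaks were placed by midpoint, and each chromosome was taken to end with its last peak (X, 17718744 bp). Overlap meant at least 1 shared bp, and domains joined peaks over gaps of up to 500 bp. Shares carry 95% Wilson intervals, which with the binomial and Fisher's exact tests cover counting error only. Fisher p-values were adjusted over 13 tests and exact arm permutations over 13 measures (Benjamini-Hochberg). The comparisons by score, width and stretch and most arm measures were added after the values were seen, and all members, lists and tests were chosen with earlier results of these data known. Peaks were named by rule: the 10 highest-scoring in both replicates, the 5 highest in neither, the 5 widest, the 5 widest domains, the highest of each Mb, the 5 highest of each replicate and replicate peaks without a whole-series partner. Other positions mentioned mark gaps, domains and limits. The functions were tested on simulated data. Analyses ran in Python 3.11.15 with scipy 1.17.1, pandas 2.3.3 and numpy 2.4.6, and figures were drawn with matplotlib 3.10.9. No genome or sequence table was used, so no sequence is shown.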

Additional observations from a re-analysis of the deposited data

How the results depend on the processing

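Of 47 alternative values, 38 kept their direction and their side of the threshold, or stayed within the interval or spread of the reported value, and 0 reversed. The 38 include 7 densities against the other 11 arms, where only the direction could change, since 12 arms cannot give a p below the threshold. They also include the density on X by covered bases, which was given the p of the peak counts. The share of arm peaks in both replicates, 40.2%, was 49.0% in the better-scoring 50% of the list, 48.5% without the stretch from 1.5 to 2.1 Mb (an alternative chosen after seeing the data) and 46.2 to 55.6% with either replicate left out, where a peak needs only the remaining one. Its difference of -14.1 points from the other peaks fell short of the threshold at -7.24 points (Fisher's exact test, p = 0.059) when peaks were joined over gaps of 500 bp, and at -5.89 points (exact test, p = 0.051) without that stretch. It ran from -26.8 to -5.89 points over all alternatives, and from -16.8 to -9.34 with either replicate left out. The whole-series over replicate ratio of covered bases, 1.71, was 2.06 in the better-scoring 50% of each list, 1.00 without the stretch and 1.55 to 1.91 with either replicate left out. The log2 density ratio to the rest of X, 1.59, ran from 1.24 to 2.37, and from 1.44 to 1.74 with either replicate left out. That to the other arms, -1.78, ran from -2.13 to -1.23, and from -1.84 to -1.72 with either replicate left out, and passed the threshold nowhere, which 12 arms cannot allow. The share of replicate 1 peaks that replicate 2 overlapped, 90.0%, was 76.7% in the better-scoring 50% of each list, which also shortens the list it is set against. What causes the other changes was not tested. Depth behind the arm's peaks is unknown. No paired analysis was possible because peak lists exist here for the ChIP samples alone, and the numbers they share with the input samples cannot be used.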
